A study of Mus musculus with 66 samples.

Results

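The data concern 10 genes of fat absorption and chylomicron formation in mouse small intestinal organoids, namely Apoa1, Apoa4, Apob, Apoc3, Mttp, Fabp1, Fabp2, Dgat1, Mogat2 and Cd36. The genes were listed by name and found by their symbol in the table of gene expression, where each had 1 transcript, so that 10 of 9481 transcripts were followed. At their loci, taken as the gene body with 10 kb on either side, 63 of the 94469 regions of open or marked chromatin were found. Three-dimensional organoids, which are self-organizing epithelial cultures, came from intestine of Lgr5 GFPDTR/+ mice, so that in every group 1 copy of the stem cell gene Lgr5 carries a reporter and a diphtheria toxin receptor. They were kept in ENR, a medium with epidermal growth factor, Noggin and R-Spondin-1, and this regular medium was the reference. In CV, CHIR99021 at 3 uM and valproic acid at 1 mM were added to ENR to enrich stem cells, and in EN R-Spondin-1 was left out to deplete stem cells, mostly in favor of enterocytes. Valproic acid also inhibits histone deacetylases, so that in CV the drug and the culture cannot be told apart. RNA-seq and ATAC-seq, which reads open chromatin, had 4 libraries per culture, the histone marks H3K27ac, H3K4me3 and H3K27me3 had 3 libraries per culture and mark, and the nuclear receptor Hnf4g had 1 library per culture. No source used here says that libraries of a group came from separate cultures or animals, so p-values measure only the spread between these samples, which may be technical.

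After a meal, enterocytes of the small intestine take up fatty acids and monoacylglycerol, carry them on binding proteins to the endoplasmic reticulum and rebuild them there into triglyceride. The triglyceride is loaded onto apolipoprotein B by the microsomal transfer protein, the particle gains further apolipoproteins on its surface, and it leaves the cell toward the lymph as a chylomicron. Enterocytes share this pathway in part with hepatocytes, which secrete related lipoproteins.

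The cultures were checked against marker lists. The 6 enterocyte markers summed to 2581 to 2821 counts per 1000000 (CPM) in CV, 5469 to 5975 in ENR and 31508 to 33817 in EN, and all 6 were higher in EN than in CV. The 5 stem cell markers summed to 457 to 518 CPM in CV, 1708 to 1851 in ENR and 36 to 40.1 in EN. ENR, not CV, thus had the highest sum, to which Olfm4 alone gave 1139 to 1274 CPM in ENR. Each of the 5 was higher in ENR than in CV without overlap, such as Lgr5 at 124 to 136 CPM against 85.2 to 94. Markers of secretory and tuft cells moved as well. The 4 goblet cell markers went from 855 to 948 CPM in CV to 7849 to 8655 in EN, the 3 enteroendocrine ones from 24.1 to 35.9 to 1283 to 1763 and the 2 tuft cell ones from 0.539 to 2.41 to 55.9 to 74.4, with each of these markers called higher, whereas the 4 Paneth cell markers went from 2502 to 2832 to 1500 to 1713, with 2 called higher and 2 lower. Of the 6 markers of hepatocytes and adipocytes only Alb and Ttr had rows, with sums of 12.6 to 16.7, 28.2 to 33.2 and 12.8 to 15.2 CPM in CV, ENR and EN, and the only row for immune or endothelial cells, Ptprc, stayed at or below 3.31 CPM. The RNA libraries held 5630977 to 8859757 counts, at which 3 counts correspond to 0.339 to 0.533 CPM. In these bulk samples fewer cells of a type and less RNA per cell cannot be told apart, and the part of the marker shifts in the results below was not tested.

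The promoters of 4 of the genes are shown because they belong to the members with the highest RNA levels and to apolipoprotein B, and because the chromatin and Hnf4g values below bear on them. The sequences are those of RefSeq (GRCm38.p6), from 250 bp before to 50 bp after the start of the gene, and 7 of the 10 genes had one. They lie at chr6:71199629-71199928 (+) for Fabp1, chr3:122894822-122895121 (+) for Fabp2, chr9:46240594-46240893 (+) for Apoa4 and chr12:7977427-7977726 (+) for Apob. Capitals mark CAAAGT, part of the HNF4 motif CAAAGTCCA, and the TATA box TATAAA, on either strand.
Fabp1: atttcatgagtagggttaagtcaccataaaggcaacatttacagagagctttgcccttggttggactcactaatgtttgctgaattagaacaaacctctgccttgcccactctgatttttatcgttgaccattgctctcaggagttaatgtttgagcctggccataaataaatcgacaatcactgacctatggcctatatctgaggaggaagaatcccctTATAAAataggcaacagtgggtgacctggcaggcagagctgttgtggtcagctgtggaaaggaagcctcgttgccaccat
Fabp2: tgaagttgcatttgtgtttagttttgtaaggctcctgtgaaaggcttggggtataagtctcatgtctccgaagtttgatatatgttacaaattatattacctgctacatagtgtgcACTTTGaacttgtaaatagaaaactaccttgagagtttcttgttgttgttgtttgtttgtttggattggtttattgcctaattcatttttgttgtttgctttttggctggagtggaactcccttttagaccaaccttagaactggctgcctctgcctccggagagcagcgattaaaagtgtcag
Apoa4: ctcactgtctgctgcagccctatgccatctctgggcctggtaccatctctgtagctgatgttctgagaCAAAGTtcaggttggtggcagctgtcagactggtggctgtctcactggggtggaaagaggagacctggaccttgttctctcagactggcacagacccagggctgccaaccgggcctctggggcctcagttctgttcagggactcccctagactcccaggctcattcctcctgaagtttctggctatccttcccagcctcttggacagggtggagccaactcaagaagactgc
Apob: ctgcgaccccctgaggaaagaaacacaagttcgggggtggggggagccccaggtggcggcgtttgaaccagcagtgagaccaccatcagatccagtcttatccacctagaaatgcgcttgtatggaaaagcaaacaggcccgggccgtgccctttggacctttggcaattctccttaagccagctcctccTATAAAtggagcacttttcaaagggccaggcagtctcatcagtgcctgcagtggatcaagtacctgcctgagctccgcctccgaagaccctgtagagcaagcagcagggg
Letters were searched as exact runs on both strands, and variants of a motif were not searched for. CAAAGT was found at -182 bp in Apoa4, at -134 bp in Fabp2 and at -122 bp in Cd36, and 14.4% of 32851 RefSeq promoter windows held it. At Apoa4 the RefSeq start lies inside the gene as annotated for the regions below, so that distances from the start differ between them. Cd36 has 3 annotated coding starts, and its RefSeq window is not at the start of its promoter region described below. TATAAA was found at -30 bp in Fabp1 and -60 bp in Apob and was in 13.6% of all windows. The whole motif CAAAGTCCA was in none of the 7 windows and in 0.475% of all windows. TTTATG, part of the CDX motif, was in the windows of Fabp1 and Cd36 and in 11.9% of all.

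All 10 genes were highest in EN. They were called higher in EN than in CV in 10 of 10 cases, where 35.2% of the 9288 transcripts tested were called higher and 41.2% lower, and higher in EN than in ENR in 10 of 10 cases, where 35.5% of all transcripts were. In each gene the 4 EN values lay above all CV and ENR values. The median log2 fold change of the 10 genes was 2.71 from CV to EN and 2.75 from ENR to EN, beside -0.08 and -0.01 over all transcripts. The 2 comparisons share the EN libraries. The median over all transcripts moved with the scaling. From CV and from ENR to EN it was -0.49 and -0.52 with library sizes from the spike-ins. In mRNA copies, which the authors scaled by the spike-ins, it was 0.69 and 1.02. The median of the 10 genes from CV to EN was 2.29 and 3.84 in these settings. Relative to the median over all transcripts the 10 genes lay 1.44 to 5.59 and 1.75 to 6.13 higher in EN than in CV. The first range equals that before this scaling and could hardly differ, since spike-in library sizes shift all transcripts nearly alike. Of all transcripts 15.9% were then called higher and 46.2% lower in EN than in CV with spike-in library sizes, and 47% and 13.6% in copies. Between CV and ENR the genes split, with 4 of 10 higher in CV, where 30.2% of all transcripts were called higher, and 6 of 10 lower, where 29.8% were called lower. A call is a Benjamini-Hochberg adjusted p below 0.01 over all transcripts in edgeR's quasi-likelihood test. CPM values below are given per library in the order of the replicate numbers, which do not pair the RNA libraries.

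Cd36, a membrane protein that binds long-chain fatty acids at the cell surface, had the lowest TPM (transcripts per 1000000, corrected for length) of the 10 genes in each culture and the largest fold change from CV to EN. Its transcript XM_006535625.1 was at 13.6, 11.5, 11.1 and 11.9 CPM in CV, 76.2, 64.6, 67.6 and 84.9 in ENR and 505, 541, 610 and 551 in EN. The 3 cultures did not overlap. The rise from CV to EN was 45.8-fold (log2 5.52 ± 0.10 SE, edgeR adjusted p = 2.04e-16), that from ENR to EN was 7.48-fold (log2 2.90 ± 0.08, edgeR adjusted p = 2.21e-14), and the gene was 6.12-fold lower in CV than in ENR (log2 -2.61 ± 0.11, edgeR adjusted p = 2.27e-11).

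Fabp1 and Fabp2, the liver and intestinal fatty acid binding proteins that carry fatty acids in the cytosol, were already high in CV. Fabp1 (NM_017399.4) was at 3331, 3220, 3267 and 2950 CPM in CV, 1531, 1335, 1436 and 1533 in ENR and 8434, 9391, 7272 and 7767 in EN. ENR was the lowest culture, with no overlap. Fabp1 rose 2.57-fold from CV to EN (log2 1.36 ± 0.07, edgeR adjusted p = 5.04e-11), the smallest rise of the 10 genes in this comparison, and was 2.19-fold higher in CV than in ENR (log2 1.13 ± 0.07, edgeR adjusted p = 1.86e-09), a call lost in mRNA copies (log2 1.01, limma adjusted p = 0.143). By quantile normalization of log2(TPM + 1) Fabp1 had a log2 difference of -0.17 from CV to EN (limma adjusted p = 0.0254), since a transcript at rank 1 in CV and 2 in EN is given nearly the same value in both. Fabp2 (NM_007980.3) was at 1089, 1070, 1044 and 1064 CPM in CV, 652, 581, 618 and 682 in ENR and 4965, 5542, 5485 and 5097 in EN. It had the same order of cultures as Fabp1. It rose 4.94-fold from CV to EN (log2 2.31 ± 0.05, edgeR adjusted p = 1.74e-15) and 8.32-fold from ENR to EN (log2 3.06 ± 0.05, edgeR adjusted p = 2.94e-16). Its call of 1.68-fold more in CV than in ENR was lost in mRNA copies too (log2 0.76, limma adjusted p = 0.122).

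Mogat2 and Dgat1 catalyze the steps that rebuild triglyceride, Mogat2 by adding a fatty acid to monoacylglycerol and Dgat1 by adding the last one to diacylglycerol. Mogat2 (NM_177448.4) was at 225, 230, 224 and 227 CPM in CV, 126, 104, 124 and 122 in ENR and 739, 751, 816 and 757 in EN. It was lowest in ENR and rose 3.38-fold from CV to EN (log2 1.76 ± 0.05, edgeR adjusted p = 4.39e-14) and 6.43-fold from ENR to EN (log2 2.68 ± 0.05, edgeR adjusted p = 1.16e-15). Dgat1 (NM_010046.2) was at 163, 165, 162 and 170 CPM in CV, 297, 274, 288 and 298 in ENR and 1297, 1243, 1370 and 1253 in EN. Dgat1 was lowest in CV and rose at each step, 1.75-fold lower in CV than in ENR (log2 -0.81 ± 0.04, edgeR adjusted p = 2.01e-10) and 7.81-fold higher in EN than in CV (log2 2.97 ± 0.04, edgeR adjusted p = 2.01e-17). In mRNA copies Dgat1 was not called between CV and ENR (log2 -0.80, limma adjusted p = 0.0284).

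Mttp is the large subunit of the microsomal triglyceride transfer protein, which loads triglyceride onto Apob, the structural protein of the chylomicron. Mttp (XM_006501103.3) was at 1522, 1501, 1544 and 1457 CPM in CV, 1010, 966, 1017 and 1053 in ENR and 4933, 5133, 5112 and 5096 in EN. It rose 3.37-fold from CV to EN (log2 1.75 ± 0.03, edgeR adjusted p = 4.75e-16) and was 1.49-fold higher in CV than in ENR (log2 0.57 ± 0.03, edgeR adjusted p = 8.2e-10), a call lost with library sizes from spike-ins (log2 0.48, edgeR adjusted p = 0.0102) and in mRNA copies (log2 0.65, limma adjusted p = 0.114). Apob (NM_009693.2) was at 1485, 1374, 1417 and 1463 CPM in CV, 1789, 1658, 1798 and 1781 in ENR and 7557, 7801, 7918 and 8243 in EN. CV and ENR lay close together without overlap. The rise from CV to EN was 5.49-fold (log2 2.46 ± 0.04, edgeR adjusted p = 8.33e-17), and the gene was 1.22-fold lower in CV than in ENR (log2 -0.29 ± 0.04, edgeR adjusted p = 6.62e-06), also a call lost with spike-in library sizes (log2 -0.38, edgeR adjusted p = 0.0382) and in copies (log2 -0.21, limma adjusted p = 0.602).

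Apoa1, Apoa4 and Apoc3 encode apolipoproteins of the particle surface, of which Apoc3 is known as an inhibitor of lipoprotein clearance and Apoa1 also as the main protein of high-density lipoprotein. Apoa1 (NM_009692.4) was at 96.2, 91.6, 85.9 and 91.8 CPM in CV, 490, 408, 441 and 496 in ENR and 4070, 3768, 3279 and 3616 in EN. The steps from CV to ENR and from ENR to EN were thus both large. Apoa1 rose 40.3-fold from CV to EN (log2 5.33 ± 0.08, edgeR adjusted p = 5.11e-17) and was 5.02-fold lower in CV than in ENR (log2 -2.33 ± 0.08, edgeR adjusted p = 1.69e-12). Apoa4 (NM_007468.2) was at 850, 788, 741 and 738 CPM in CV, 1418, 1186, 1448 and 1496 in ENR and 10449, 10276, 9209 and 9402 in EN. Apoa4 had the highest CPM of the 10 genes in EN and rose 12.6-fold from CV (log2 3.66 ± 0.08, edgeR adjusted p = 9.9e-16), with 1.78-fold less in CV than in ENR (log2 -0.83 ± 0.07, edgeR adjusted p = 4.94e-08), a call lost in copies (log2 -0.97, limma adjusted p = 0.0436). Apoc3 (NM_001289833.1) was at 21.2, 15.5, 15.4 and 18.8 CPM in CV, 56.3, 48.1, 50.7 and 56 in ENR and 506, 440, 532 and 429 in EN. Its rise was 26.9-fold from CV (log2 4.75 ± 0.10, edgeR adjusted p = 1.19e-15) and 9-fold from ENR (log2 3.17 ± 0.09, edgeR adjusted p = 3.05e-14), and it was 2.99-fold lower in CV than in ENR (log2 -1.58 ± 0.11, edgeR adjusted p = 1.01e-08).

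**Figure D1:**
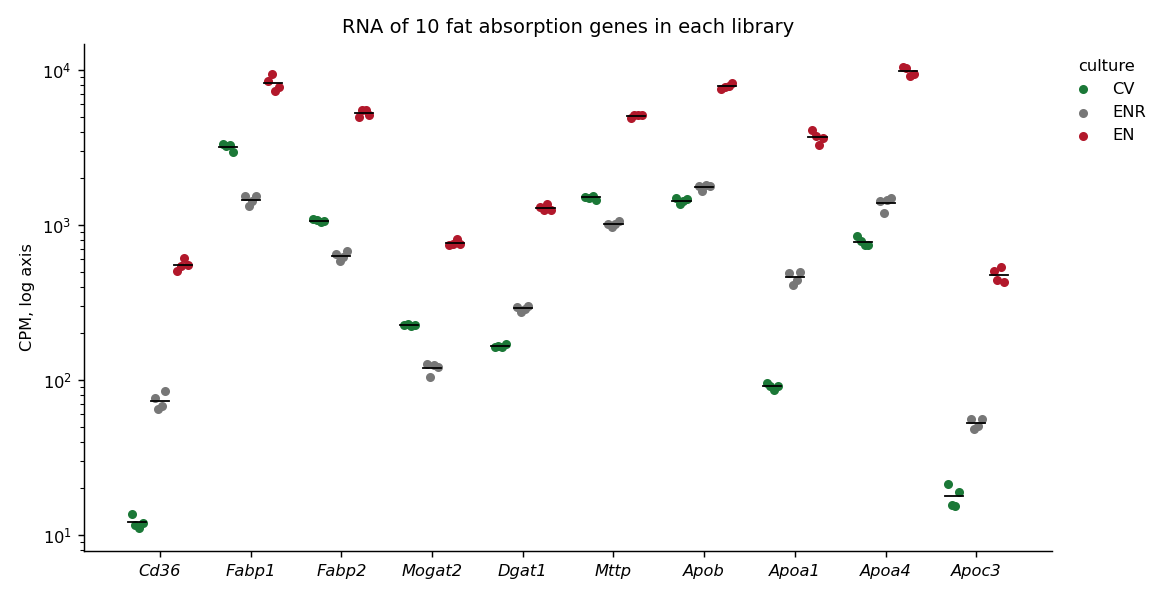
RNA of the 10 genes in CPM (log axis), with a point for each of the 4 libraries of CV, ENR and EN and a line at the mean. In every gene the EN points lie above the rest, while Fabp1, Fabp2, Mogat2 and Mttp are lower in ENR than in CV and the other 6 genes are lower in CV.

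From ENR to EN the 10 fold changes lay between 4.46-fold for Dgat1 and 9-fold for Apoc3, whereas from CV to EN they lay between 2.57-fold for Fabp1 and 45.8-fold for Cd36. The range among the genes was thus wider from CV than from ENR. Fabp1, Mogat2, Fabp2 and Mttp were 2.19, 1.9, 1.68 and 1.49-fold higher in CV than in ENR, and Apob, Dgat1, Apoa4, Apoc3, Apoa1 and Cd36 were 1.22, 1.75, 1.78, 2.99, 5.02 and 6.12-fold lower. The 4 genes higher in CV include both binding proteins, and all 4 apolipoprotein genes were among the 6 lower ones. CV and ENR values did not overlap in any of the 10 genes.

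**Figure D2:**
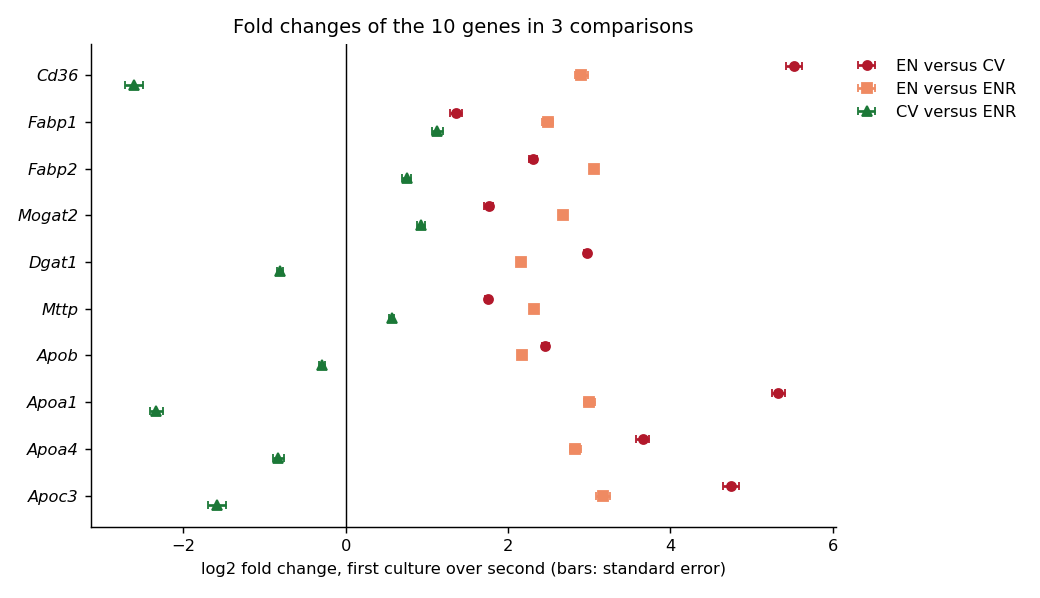
Log2 fold changes of the 10 genes from edgeR with their standard errors, for EN versus CV, EN versus ENR and CV versus ENR. EN versus ENR lies between 2.16 and 3.17 in all genes, and CV versus ENR runs from -2.61 in Cd36 to 1.13 in Fabp1.

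Levels of different genes were compared by TPM, which corrects for transcript length. Fabp1 was the most abundant of the 10 genes in each culture, at 16366 ± 523 TPM in CV, 6740 ± 377 in ENR and 33035 ± 2589 in EN (SD, n = 4), and it ranked 1, 14 and 2 among the 9481 transcripts. In CV it was followed by Fabp2 (2118 ± 41.9 TPM), Apoa4 (827 ± 53.8), Mttp (693 ± 12.3) and Mogat2 (222 ± 3.59). Apoa1 (179 ± 8.59), Apob (164 ± 6.71) and Dgat1 (163 ± 5.01) came next, with ranges that overlapped from each to the next, then Apoc3 (102 ± 15.5) and Cd36 (7.78 ± 0.731). In EN the order below Fabp1 was Apoa4 (8355 ± 573) and Fabp2 (8339 ± 305), which overlapped, then Apoa1 (5752 ± 557), and Apoc3 (2150 ± 255) and Mttp (1871 ± 8.22), which overlapped as well. Dgat1 (1021 ± 49), Apob (724 ± 19.9), Mogat2 (601 ± 24.2) and Cd36 (286 ± 19.9) closed the order without overlap.

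In ENR the order was Fabp1, Apoa4 (1321 ± 131 TPM) and Fabp2 (1129 ± 75.8), Apoa1 (806 ± 70.9), Mttp (417 ± 15), Apoc3 (273 ± 17.6) and Dgat1 (256 ± 9.39), Apob (180 ± 6.85), Mogat2 (105 ± 8.95) and Cd36 (42.5 ± 5.3). Apoa4 and Fabp2 overlapped there, as did Apoc3 and Dgat1. Apoa1 moved from rank 768 of all transcripts in CV to 171 in ENR and 11 in EN, Apoa4 from 179 to 116 and 7, and Cd36 from 7227 to 2738 and 502. The 10 genes together held 2.13 ± 0.0574% of all TPM in CV, 1.15 ± 0.0726% in ENR and 6.37 ± 0.319% in EN (SD, n = 4), so that CV exceeded ENR. Most of this sum was Fabp1, whose share of the TPM of the 10 genes fell from 78.5% in CV to 59.8% in ENR and 53.1% in EN, while Apoa1 went from 0.859% to 7.15% and 9.24% and Apoa4 from 3.97% to 11.7% and 13.4%.

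Other genes of the pathway were counted in lists made by function, whose counts are to be read beside the 35.2% of all transcripts called higher and 41.2% called lower in EN than in CV. Of 13 transcripts for fatty acid uptake and activation, 5 were higher and 7 lower in EN than in CV, shares near those of all transcripts, with a median log2 change of -0.39 beside -0.08 over all transcripts. The transporters Slc27a2 (log2 4.05 ± 0.07, 32.1 to 532 CPM) and Slc27a4 (2.80 ± 0.06, 80.2 to 561 CPM) rose, while Scarb1, a receptor for high-density lipoprotein (-3.16 ± 0.12, 33.9 to 3.68 CPM), and Acsl4, an acyl-CoA synthetase (-3.15 ± 0.09, 104 to 11.7 CPM), fell. Acbd3 was at 73.3 CPM in CV and 69.8 in EN (edgeR adjusted p = 0.193). Of 12 transcripts for the resynthesis of triglyceride and phospholipid, other than the genes above, 8 were higher and 3 lower, with a median of 0.62. Agpat2 (1.36 ± 0.05) and Lpin3 (1.11 ± 0.06) of the glycerol phosphate route rose, Agpat5 (-2.46 ± 0.07) and Gpam (-1.10 ± 0.06) fell, and Gpat4 was at 77.8 and 68.5 CPM (edgeR adjusted p = 0.0133).

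Of 21 transcripts of 18 genes for chylomicron assembly and transport out of the endoplasmic reticulum, 15 were higher and 1 lower in EN than in CV, with a median of 1.04. Tm6sf2, a membrane protein of lipoprotein lipidation, rose from 38 to 272 CPM (log2 2.84 ± 0.07) and Mia2, a cargo receptor at the exit sites, from 65.5 to 323 CPM (2.30 ± 0.07), whereas the coat protein gene Sar1a fell from 188 to 136 CPM (-0.47 ± 0.04). Of 16 transcripts of 14 genes for lipid droplets and lipolysis, 13 were higher and 2 lower, with a median of 1.99. The carboxylesterases Ces1d (14.4 to 552 CPM, 5.26 ± 0.06) and Ces1e (13.6 to 298 CPM, 4.45 ± 0.05) led, although reads of these near-identical genes may be split between them. Abhd5 (21.3 to 17.5 CPM, -0.29 ± 0.09) and the droplet coat protein Plin2 (221 to 186 CPM, -0.25 ± 0.05) fell, and Fitm2 was at 30.8 and 24.6 CPM (edgeR adjusted p = 0.0106).

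Among 6 transcripts of genes listed as other apolipoproteins 2 were higher and 3 lower in EN than in CV, with a median of -0.06. Whether each of these genes encodes a protein of lipoprotein particles was not checked. Apoa2 was called higher, from 0.465 CPM in CV, near the level of 3 counts, to 10.9 in EN, and Apool rose from 62.2 to 71.7 CPM (log2 0.20 ± 0.05). Clu fell from 22.4 to 2.89 CPM (-2.95 ± 0.21) and Apoe from 3.32 to 0.745 CPM (-2.10 ± 0.29), and Apoh was near or below the level of 3 counts in all cultures (0.0671, 0.192 and 0.549 CPM, edgeR adjusted p = 0.0264). Of 10 transcripts for cholesterol absorption and efflux 7 were higher and 2 lower, with a median of 1.14. Soat2, which esterifies cholesterol for chylomicrons, rose from 25 to 249 CPM (3.32 ± 0.07), and its relative Soat1 fell from 249 to 27.2 CPM (-3.21 ± 0.06). Abcg8, a subunit of a sterol export pump, rose from 96.2 to 509 CPM (2.40 ± 0.05), Npc1 fell from 26.9 to 18.8 CPM (-0.50 ± 0.09), and Npc2 was at 159 and 149 CPM (edgeR adjusted p = 0.0541).

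Of 16 transcription factors of enterocyte lipid genes, 12 were higher and 1 lower in EN than in CV, with a median of 0.88. Hnf4g rose from 122 ± 5.03 CPM in CV to 369 ± 9.2 in ENR and 1406 ± 105 in EN (SD, n = 4), a log2 change of 3.52 ± 0.05 from CV to EN (edgeR adjusted p = 5.11e-17). Its relative Hnf4a was at 726 ± 15.1, 708 ± 9.65 and 703 ± 12.3 CPM (log2 -0.05 ± 0.03, edgeR adjusted p = 0.153). Creb3l3, a membrane-bound factor known to act on apolipoprotein genes, rose from 122 to 877 CPM (2.84 ± 0.04), and Cdx2 fell from 232 to 212 CPM (-0.13 ± 0.04). Srebf2 was at 117 and 126 CPM (edgeR adjusted p = 0.107). From ENR to EN the 7 lists had 5 of 13, 8 of 12, 17 of 21, 14 of 16, 2 of 6, 7 of 10 and 11 of 16 transcripts higher in the same order, and 5, 3, 0, 0, 2, 2 and 0 lower, beside 35.5% and 37.2% of all transcripts. From ENR to CV they had 10, 7, 5, 4, 2, 5 and 1 higher and 3, 1, 7, 7, 1, 5 and 8 lower, beside 30.2% and 29.8% of all transcripts.

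The genes with the pattern most like each of the 10, by the root mean square difference of mean-centered log2 CPM over 12 libraries, were Adh4 (0.17) and Arg2 (0.20) for Apoa1, Cyp4f14 (0.08) and Cyp2j6 (0.13) for Apoa4, Abcg8 (0.06) and Tmc5 (0.09) for Apob, and Guca2b (0.15) and Papss2 (0.18) for Apoc3. For Mttp they were Acsl5 (0.07) and Gramd3 (0.08), for Fabp1 Rhoc (0.09) and Mpp1 (0.13), for Fabp2 Cndp2 (0.11) and H2-Bl (0.14), for Dgat1 Btnl6 (0.06) and Maoa (0.07), for Mogat2 H2-Q2 (0.12) and Acaa1b (0.12), and for Cd36 Arg2 (0.15) and Fhl1 (0.18). H2-Bl and H2-Q2 belong to a family of near-identical genes, whose counts are uncertain, and Fhl1 had no count in CV. Within the 10 genes Apoa1 and Cd36 (0.17), Mttp and Mogat2 (0.18) and Apob and Dgat1 (0.25) were each nearest to the other. Mogat2 was also the nearest member to Fabp1 (0.20) and Fabp2 (0.23). For Apoa4 it was Dgat1 (0.34) and for Apoc3 Apoa1 (0.35).

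Chromatin was read in 63 regions at the loci, in mm9. Of them 13 were promoter regions, which overlap 500 bp around a protein-coding start, and these covered 9 of the genes, Apoa1 having none. A further 25 regions lay in introns, 5 in exons, 9 upstream and 11 downstream. For 59 of the 63 regions the nearest coding start was that of a member. Values are the deposited normalized scores, rounded to whole numbers, and were tested with limma on log2(score + 1), with a call at a Benjamini-Hochberg adjusted p below 0.01 over all regions tested.

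Open chromatin was higher in EN at many of the loci. Of the 63 regions, 27 had more ATAC signal in EN than in CV, where 14.3% of 94166 regions were called higher, and 1 had less, where 10.2% were called lower. From ENR to EN 27 were higher and 1 lower, beside 6.71% and 7.31% of all regions. With regions of a mean score of at least 5 alone, 24 higher calls were left from CV to EN and 22 from ENR to EN. Between CV and ENR none was called higher in CV by limma, where 2.41% of all were (3 had an unadjusted p below 0.05 in this direction), and 6 were lower, where 5.52% were. The median log2 difference over the 63 regions was 0.91 from CV to EN, 0.96 from ENR to EN and -0.14 from ENR to CV, beside 0.05, -0.01 and -0.07 over all regions. Every one of the 10 genes had at least 1 region with a higher ATAC score in EN than in CV, with 4 of 5 regions at Apoa1, 4 of 4 at Apoa4 and 2 of 2 at Apoc3 against 1 of 5 at Fabp1 and 1 of 6 at Fabp2. The summed score of a library over all regions was higher in EN too, 1993594 to 2109261 against 1752385 to 1840402 in CV, and the 63 regions held 0.0748% to 0.0944% of it in EN, 0.0541% to 0.06% in ENR and 0.0486% to 0.0574% in CV.

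Apoa1, Apoc3 and Apoa4 lie within 14.9 kb at chr9:46036663-46051542 (mm9). Apoa1 (chr9:46036663-46038549) and Apoa4 (chr9:46048779-46051542) are read on the plus strand and Apoc3 (chr9:46041016-46043719) between them on the minus strand. A region upstream of Apoa1, chr9:46035091-46035496, centered at -1370 bp, had ATAC scores of 13, 16, 12 and 7 in CV, 39, 59, 35 and 39 in ENR and 84, 71, 68 and 117 in EN. The 3 cultures did not overlap there, as with the RNA of Apoa1. The log2 difference was 2.74 ± 0.23 from CV to EN (limma adjusted p = 8.69e-08) and -1.78 ± 0.23 from ENR to CV (limma adjusted p = 4.75e-05). From ENR to EN it was 0.96 ± 0.23 (limma adjusted p = 0.00498), a call lost when EN library 4 (limma adjusted p = 0.0227) or ENR library 1, 3 or 4 (limma adjusted p of 0.0187, 0.0208 and 0.0187) was left out.

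At the start of Apoa4, chr9:46048791-46049120, centered at 176 bp, the ATAC scores were 6, 6, 5 and 4 in CV, 16, 21, 13 and 17 in ENR and 49, 55, 30 and 49 in EN. The order was again CV, ENR and EN without overlap, with log2 differences of 2.88 ± 0.22 from CV to EN (limma adjusted p = 3.24e-08) and -1.50 ± 0.22 from ENR to CV (limma adjusted p = 0.00017). The next region of Apoa4, chr9:46049201-46049796, had H3K27ac scores of 12, 22 and 33 in CV, 32, 18 and 22 in ENR and 149, 123 and 148 in EN. Here CV and ENR overlapped and EN stood above both, by a log2 difference of 2.70 ± 0.38 from CV (limma adjusted p = 1.56e-05). At the promoter of Apoc3, chr9:46043750-46044064, centered at -188 bp, ATAC scores were 12, 11, 13 and 11 in CV, 15, 20, 17 and 18 in ENR and 46, 35, 36 and 48 in EN, with log2 differences of 1.72 ± 0.17 from CV (limma adjusted p = 6.66e-07) and 1.18 ± 0.17 from ENR to EN (limma adjusted p = 8.77e-05). In the last part of Apoa1, chr9:46038013-46038535, the ATAC signal did not pass the test between EN and CV (log2 -0.14 ± 0.16, limma adjusted p = 0.562), while H3K27ac was at 13, 8 and 12 in CV, 52, 29 and 19 in ENR and 88, 83 and 112 in EN, a log2 difference of 3.00 ± 0.42 (limma adjusted p = 9.92e-06).

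**Figure D3:**
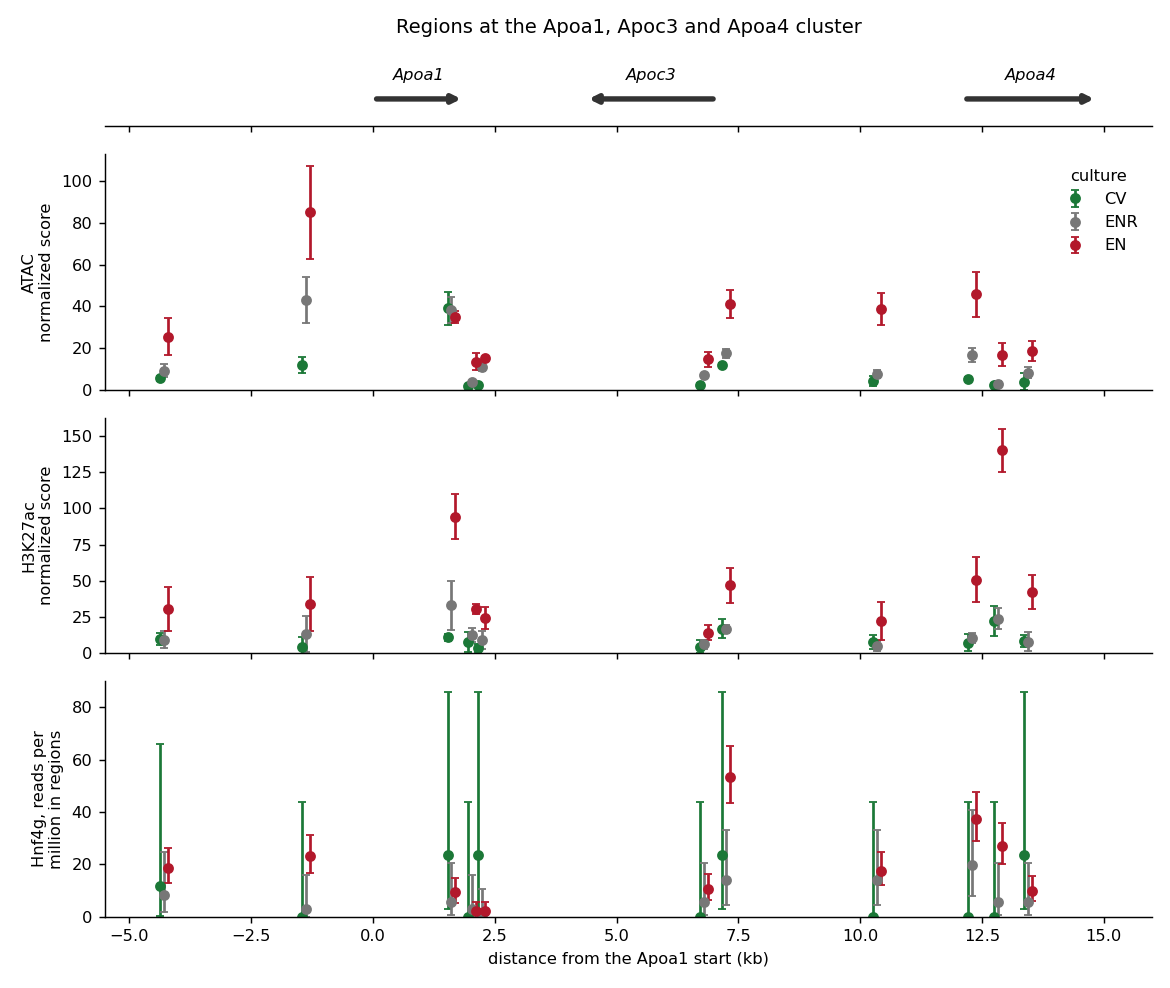
The Apoa1, Apoc3 and Apoa4 cluster by distance from the Apoa1 start (kb), with the mean and SD of normalized ATAC (n = 4) and H3K27ac (n = 3) scores per culture and Hnf4g reads per 1000000 (RPM) with 95% Poisson intervals (1 library per culture). EN lies above CV at 10 of the 11 regions in ATAC, the exception being the last part of Apoa1, and in all 11 in H3K27ac.

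Of the 13 promoter regions 6 had more ATAC signal in EN than in CV, where 12.9% of 15630 promoter regions of all genes were called higher, 2 each at Apoa4 and Apoc3 and 1 each at Apob and Fabp1. That of Fabp1, chr6:71149715-71151074, had ATAC scores of 11, 16, 21 and 18 in CV, 13, 12, 15 and 18 in ENR and 30, 25, 32 and 39 in EN, a log2 difference of 0.91 ± 0.21 from CV (limma adjusted p = 0.00256) that was no longer called without CV library 1 or EN library 4 (limma adjusted p = 0.012 each) or with scores scaled to equal library sums (log2 0.72, limma adjusted p = 0.0134). The promoter region of Apob, chr12:7984304-7985778, had ATAC scores of 88, 74, 89 and 82 in CV, 83, 76, 99 and 92 in ENR and 120, 151, 144 and 161 in EN. CV and ENR overlapped there, and EN was above both by a log2 difference of 0.78 ± 0.12 from CV (limma adjusted p = 5.55e-05) and 0.71 ± 0.12 from ENR (limma adjusted p = 0.000285). That of Dgat1, chr15:76340974-76342627, had 90 to 119 in CV and 94 to 136 in EN (log2 0.21 ± 0.14, limma adjusted p = 0.27), and that of Mogat2, chr7:106386084-106387427, had 52 to 57 and 45 to 71 (log2 -0.07 ± 0.16, limma adjusted p = 0.754).

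In an intron of Mttp, chr3:137783381-137784187, ATAC scores were 11, 14, 11 and 15 in CV, 11, 15, 12 and 16 in ENR and 50, 57, 53 and 61 in EN. CV and ENR overlapped, and EN was higher by a log2 difference of 2.04 ± 0.18 from CV (limma adjusted p = 1.41e-07) and 1.97 ± 0.18 from ENR (limma adjusted p = 7.89e-07). Downstream of Mogat2, at chr7:106363308-106363818, scores were 6, 11, 9 and 4 in CV, 19, 17, 15 and 11 in ENR and 49, 52, 39 and 43 in EN. EN again stood clear of both, by a log2 difference of 2.53 ± 0.25 from CV (limma adjusted p = 5.19e-07). Of the regions of Cd36, the promoter region chr5:17355585-17355681 scored 1 to 3 in every ATAC library, and the called ones lay within the gene, such as chr5:17334604-17335268 with 19, 16, 19 and 29 in CV and 28, 49, 87 and 77 in EN (log2 1.40 ± 0.30, limma adjusted p = 0.00123). The 1 region lower in EN than in CV, chr3:137807978-137808095 upstream of Mttp (log2 -1.30 ± 0.36, limma adjusted p = 0.00911), is nearer to the start of Rg9mtd2, and the 1 lower in EN than in ENR, chr5:17282508-17282653, lies downstream of Cd36 (log2 -0.77 ± 0.20, limma adjusted p = 0.00871). The first was not called without any 1 of the CV libraries, EN library 1 or 4 or ENR library 1, 2 or 4 (limma adjusted p of 0.0103 to 0.0369), and the second not without CV library 1 or 3, EN library 2 or 3 or any 1 of the ENR libraries (limma adjusted p of 0.0117 to 0.0358).

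H3K27ac, an acetylation found at active promoters and enhancers, was higher in EN than in CV in 14 of 63 regions, where 2.68% of 94215 regions were called higher, and higher in EN than in ENR in 11, where 0.418% were. The median log2 difference of the 63 regions was 1.36 and 1.39, beside -0.14 and 0.25 over all regions. Between CV and ENR limma called none of the 63 in either direction, where 0.626% of all regions were called, and 7 of the 63 and 15101 of all regions had an unadjusted p below 0.05. The 14 and 11 calls rest on the trend of the variance with the score, since 0 remained in either comparison without that trend. With the replicate number as a block 0 remained as well. That fit says little, since it leaves few degrees of freedom over 9 libraries and the numbers do not pair these libraries. Without CV library 5 or EN library 2, 3 or 4 the 14 calls became 7, 6, 8 and 6, and without each of those or ENR library 2 or 4 the 11 calls became 6, 3, 4, 2, 5 and 5.

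Of the 13 promoter regions 8 had more H3K27ac in EN than in CV and 7 more than in ENR, where 10.5% and 1.16% of 15638 promoter regions of all genes were called higher. Without CV library 5 or EN library 2, 3 or 4 the 8 became 5, 4, 5 and 5, and without EN library 2, 3 or 4 or ENR library 2 or 4 the 7 became 2, 3, 2, 4 and 3. The promoter region of Fabp1 had scores of 85, 81 and 95 in CV, 100, 59 and 66 in ENR and 318, 243 and 308 in EN. CV and ENR overlapped and EN was well above, by a log2 difference of 1.72 ± 0.23 from CV (limma adjusted p = 7.1e-06) and 1.96 ± 0.23 from ENR (limma adjusted p = 7.53e-06). That of Fabp2, chr3:122598116-122599614, had 80, 73 and 45 in CV, 45, 29 and 35 in ENR and 247, 163 and 169 in EN, with a log2 difference of 2.37 ± 0.30 from ENR (limma adjusted p = 1.53e-05). That of Dgat1, which did not pass in ATAC, had 118, 97 and 82 in CV, 115, 107 and 120 in ENR and 247, 258 and 289 in EN (log2 1.42 ± 0.21 from CV to EN, limma adjusted p = 1.88e-05), which after quantile normalization was 0.79 and not called (limma adjusted p = 0.0307).

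Mttp has an inner and an outer annotated start. At the inner one, chr3:137793468-137794006, H3K27ac was at 47, 47 and 36 in CV, 55, 57 and 40 in ENR and 202, 169 and 208 in EN, all EN scores being above the rest. The log2 difference from CV to EN was 2.13 ± 0.28 (limma adjusted p = 4.42e-06), while ATAC in the same region was at 7 to 10 in CV and 5 to 14 in EN (log2 0.08 ± 0.28, limma adjusted p = 0.842). At the outer start, chr3:137805798-137807820, which is shared with and nearer to the neighbor Rg9mtd2, H3K27ac was at 90, 165 and 91 in CV and 230, 147 and 181 in EN, with overlap (log2 0.72 ± 0.23, limma adjusted p = 0.046). At the promoter of Apob the scores were 34, 109 and 51 in CV, 88, 81 and 71 in ENR and 212, 165 and 180 in EN (log2 1.67 ± 0.30 from CV to EN, limma adjusted p = 0.000348), a call lost when CV library 5 (limma adjusted p = 0.0223) or EN library 2, 3 or 4 (limma adjusted p of 0.0203, 0.0137 and 0.0133) was left out. The 63 regions held 0.156% to 0.195% of the summed H3K27ac score of a library in EN, 0.068% to 0.0797% in ENR and 0.0732% to 0.0811% in CV.

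**Figure D4:**
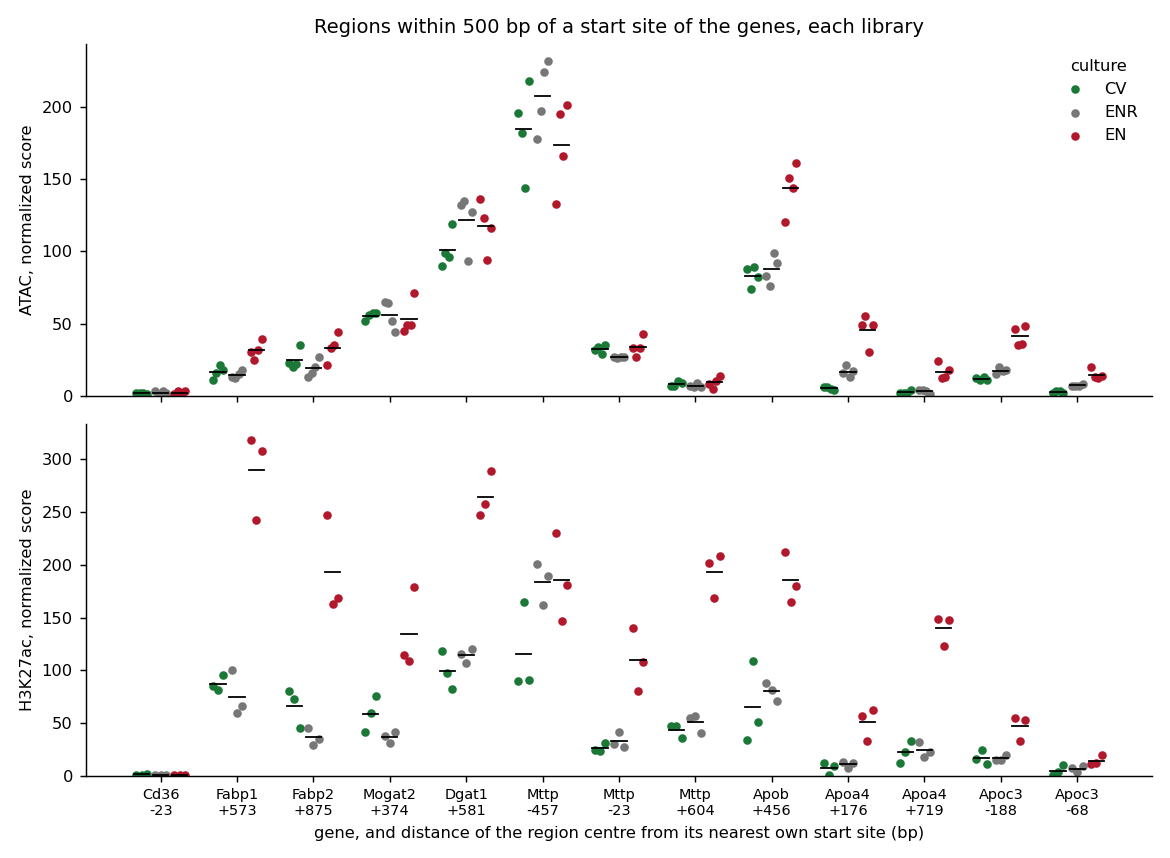
Normalized ATAC (4 libraries per culture) and H3K27ac (3 libraries) scores of the 13 promoter regions, with a point per library and a line at the mean, ordered by the role of the gene. The EN points of H3K27ac lie above the others at Fabp1 (243 to 318) and Dgat1 (247 to 289), where the ATAC points of Dgat1 overlap (90 to 119 in CV and 94 to 136 in EN).

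H3K4me3, a mark of active promoters, was higher in EN than in CV in 3 of 63 regions, where 1.52% of 77827 regions were called higher, and in 7 against ENR, where 1.99% were. In 2 of these regions, an intron of Cd36 at chr5:17385873-17385974 and a region downstream of Fabp1 at chr6:71155326-71155478, the scores were 0 in all CV and ENR libraries and 1 in all EN libraries, a difference at the limit of the rounding. With regions of a mean score of at least 5 alone, 1 and 4 calls were left. The 1 from CV to EN was in an intron of Cd36, chr5:17334158-17334572, with 1, 2 and 2 in CV, 2, 4 and 2 in ENR and 9, 15 and 21 in EN (log2 2.54 ± 0.36, limma adjusted p = 0.00759), and it was lost without any 1 of the CV or ENR libraries or EN library 2 or 4 (limma adjusted p of 0.0123 to 0.0335). At the promoter region of Mogat2 the scores were 52, 72 and 69 in CV, 35, 31 and 29 in ENR and 71, 70 and 92 in EN, so that ENR was lowest, as in the RNA of Mogat2. Its difference from ENR to EN was 1.26 ± 0.17 (limma adjusted p = 0.00531), lost without CV library 4 or any 1 of the EN or ENR libraries (limma adjusted p of 0.0102 to 0.0313). When libraries were scaled to equal sums 0 of the 7 calls against ENR remained, and without EN library 2 or 4 or ENR library 1, 2 or 4 the 7 became 2, 3, 3, 3 and 2. Over the 63 regions the median log2 difference was 0.70 from CV to EN and 1.19 from ENR to EN, beside 0.09 and 0.44 over all regions. They held 0.0696% to 0.126% of the summed H3K4me3 score of a library in EN, 0.0462% to 0.0537% in ENR and 0.0504% to 0.0634% in CV.

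Between CV and ENR limma called none of the 63 regions in H3K4me3, where 0% of all regions were called, with 6 of the 63 and 13078 of all regions at an unadjusted p below 0.05. In H3K27me3, the mark of Polycomb silencing, limma called none of the 63 regions in any comparison. Of all regions 0.163% were called in EN versus CV, 0% in EN versus ENR and 0.299% in CV versus ENR, and of the 63 regions 8, 3 and 6 had an unadjusted p below 0.05, beside 8577, 10973 and 10058 of all regions. The summed H3K27me3 scores of the 63 regions overlapped between the cultures, at 574 to 697 in CV, 512 to 695 in ENR and 530 to 658 in EN.

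Hnf4g, a nuclear receptor of the gut epithelium, was measured once per culture, so that no difference between cultures could be tested. The libraries held 84340 reads in regions in CV, 352600 in ENR and 1816497 in EN, and 3 reads correspond to 35.6, 8.51 and 1.65 reads per 1000000 reads in regions (RPM). The 63 regions took 65 reads in CV (95% Poisson interval 50.2 to 82.8), 306 in ENR (273 to 342) and 2277 in EN (2184 to 2372), or 771, 868 and 1254 RPM. That was 0.0771%, 0.0868% and 0.125% of reads, whereas the 63 regions make up 0.07% of the bases in regions. Intervals cover counting error only. Promoter regions took 29608, 131766 and 985331 of the reads in CV, ENR and EN. Scaled to promoter reads alone, the RPM values were 2195, 2322 and 2311, so that the difference between cultures depends on this choice.

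By gene, Mogat2 took the most Hnf4g reads in CV and EN, with 19 in CV, 45 in ENR (where Cd36 had 69 and Apob and Mttp 52 each) and 687 in EN, or 225 (136 to 352), 128 (93.1 to 171) and 378 (350 to 408) RPM. Of these 330 of the EN reads lay in the region downstream of Mogat2 that was also more open in EN (4 reads in CV and 9 in ENR), and only 291 of the 94469 regions had at least as many reads in EN. The promoter regions of Apob (2, 48 and 255 reads in CV, ENR and EN), Dgat1 (4, 5 and 206), Mogat2 (2, 7 and 145) and Apoc3 (2, 5 and 97) came next. Reads and RPM are not corrected for the width or number of regions. The Apoc3 promoter region spans 314 bp and that of Apob 1474 bp. The promoter region of Apob was at 23.7 (2.87 to 85.7), 136 (100 to 180) and 140 (124 to 159) RPM, so that ENR and EN overlapped. Fabp1, the most abundant transcript of the 10, had 1, 3 and 47 reads over its 5 regions, or 25.9 (19 to 34.4) RPM in EN, the lowest of the 10 genes. Cd36, whose RNA rose 7.48-fold from ENR to EN, had fewer RPM in EN, at 69 reads or 196 (152 to 248) RPM in ENR and 75 reads or 41.3 (32.5 to 51.8) RPM in EN, of which 62 and 30 reads lay in the downstream region that was less open in EN than in ENR. The Cd36 promoter region chr5:17355585-17355681, which is not at the RefSeq start, took 0 reads in each library, with 95% Poisson upper limits of 43.7, 10.5 and 2.03 RPM.

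**Figure D5:**
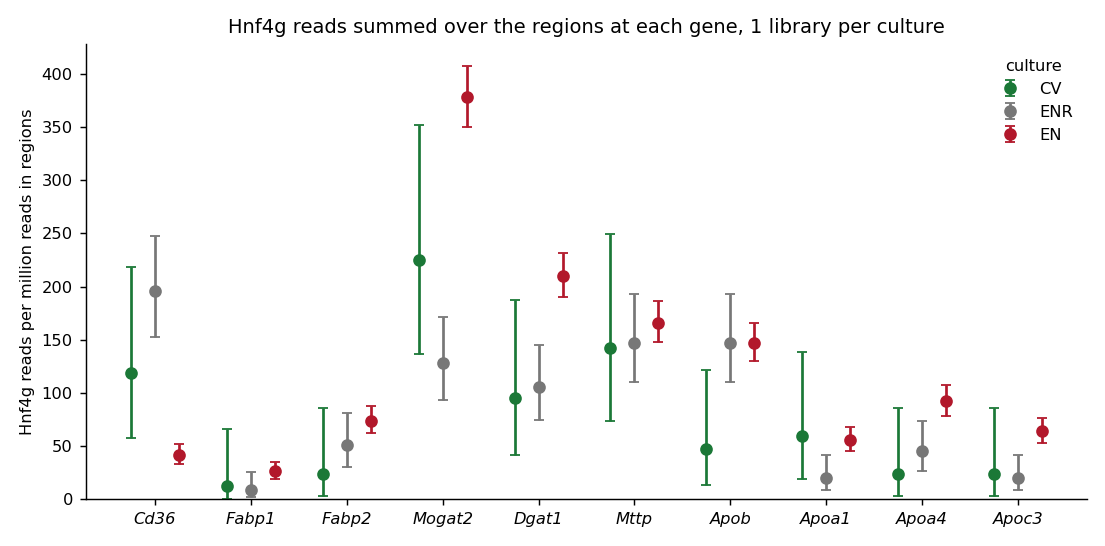
Hnf4g RPM, scaled to all reads in regions and summed over the regions at each of the 10 genes, with 95% Poisson intervals for counting error, 1 library per culture. Mogat2 is highest in EN at 378, Fabp1 is lowest in EN at 25.9, and Cd36 is higher in ENR (196) than in EN (41.3). Of the Cd36 reads, 62 of 69 in ENR and 30 of 75 in EN lay in the downstream region chr5:17282508-17282653. Sums are not corrected for the width or number of regions.

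The region downstream of Mogat2 with the most Hnf4g reads and the 3 regions whose central 300 bp held the motif CAAAGTCCA are shown, from mm9, plus strand. They are chr7:106363414-106363713 downstream of Mogat2, chr7:106373125-106373424 in an intron of Mogat2, chr12:7991221-7991520 in an intron of Apob and chr9:46049965-46050264 in an intron of Apoa4. Capitals mark CAAAGT and CAAAGTCCA, which contains it, on either strand.
Mogat2 downstream: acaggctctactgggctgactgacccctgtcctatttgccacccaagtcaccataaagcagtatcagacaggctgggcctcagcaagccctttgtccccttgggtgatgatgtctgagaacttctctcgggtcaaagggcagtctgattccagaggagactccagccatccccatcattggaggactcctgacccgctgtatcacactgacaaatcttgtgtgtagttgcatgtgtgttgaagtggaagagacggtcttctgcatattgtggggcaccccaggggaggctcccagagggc
Mogat2 intron: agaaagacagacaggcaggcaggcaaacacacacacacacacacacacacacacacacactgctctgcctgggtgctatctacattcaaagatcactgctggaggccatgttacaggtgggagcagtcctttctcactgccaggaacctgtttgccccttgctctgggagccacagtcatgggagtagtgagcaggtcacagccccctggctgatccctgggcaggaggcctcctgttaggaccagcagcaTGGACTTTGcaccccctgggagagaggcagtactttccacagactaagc
Apob intron: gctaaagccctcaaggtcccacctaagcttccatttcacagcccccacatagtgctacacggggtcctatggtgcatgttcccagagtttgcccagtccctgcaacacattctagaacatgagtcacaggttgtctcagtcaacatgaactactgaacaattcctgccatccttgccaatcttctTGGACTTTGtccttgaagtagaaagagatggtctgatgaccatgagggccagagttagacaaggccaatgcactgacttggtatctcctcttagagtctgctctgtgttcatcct
Apoa4 intron: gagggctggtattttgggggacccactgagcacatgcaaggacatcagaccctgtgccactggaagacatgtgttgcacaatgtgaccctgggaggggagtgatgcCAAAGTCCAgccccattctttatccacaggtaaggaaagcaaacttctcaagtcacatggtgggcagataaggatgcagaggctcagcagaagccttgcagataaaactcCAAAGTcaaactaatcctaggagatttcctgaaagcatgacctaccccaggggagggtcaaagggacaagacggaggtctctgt
The region downstream of Mogat2 held neither exact run of letters in this window. Variants of the motif were not searched for, so that an HNF4 site in another form is not excluded. The 3 others had 31, 8 and 18 Hnf4g reads in EN in the order shown, fewer than the promoter regions of Apob, Dgat1 and Mogat2. These reads are not corrected for width, and the 3 regions span 476, 255 and 229 bp against 1474, 1653 and 1343 bp for those promoter regions. Each of the 3 had a higher ATAC score in EN than CV, by log2 differences of 1.45 ± 0.30 in Mogat2 (limma adjusted p = 0.00101), 2.28 ± 0.32 in Apob (limma adjusted p = 2.1e-05) and 2.24 ± 0.40 in Apoa4 (limma adjusted p = 0.000233). Of the 63 windows 3 held CAAAGTCCA and 15 held CAAAGT, beside 2.28% and 22.1% of 94340 windows at all regions. TATAAA was in 7 (15.2% of all windows), the GATA motif AGATAA in 19 (19%) and TTTATG in 9 (17.4%).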

How the data were processed

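Of 66 samples 54 were used (12 RNA-seq, 12 ATAC-seq, 27 histone and 3 Hnf4g libraries), grouped by their labels as CV, ENR or EN, and the other 12 were not used here. The authors estimated transcript levels with kallisto (0.43.0 in the submitters' processing notes) on transcripts whose proteins had been quantified, and deposited expected counts, TPM and mRNA copies scaled by spike-ins. Region values are scores that the authors deposited after normalizing read counts over shared regions and that hold whole numbers only, and Hnf4g values are deposited raw read counts in the same regions. The tools and build named by the submitters are BWA, Picard, MACS2 2.0, DESeq2 and mm9.

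Expected counts were rounded and tested with edgeR 4.0.16 (R 4.3.3; TMM, quasi-likelihood) with all 12 libraries in 1 model, for transcripts above 0 in at least 4 libraries, and the SE is the log2 fold change divided by the root of the F statistic. Scores were tested with limma 3.58.1 on log2(score + 1) with a variance trend, leaving out regions with a score above 0 in fewer than 3 libraries. Fold changes of scores understate changes of low values. Adjusted p-values are Benjamini-Hochberg values over all features tested, and 0.01 was the threshold. The scripts were tested on simulated data with known changes. Hnf4g counts, with 1 library per culture, were given with exact Poisson intervals, and promoter regions overlap 500 bp on either side of a coding start of GENCODE vM1. DESeq2 1.42.0, other scalings, filters and pseudocounts, the replicate number as a block and leaving out each library were the alternatives.

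The 10 genes and the lists were chosen with earlier results of these data known. Named were the 10 genes, the 2 largest rises and falls from CV to EN among called genes of each list, genes not called where a list had at most 3 (1 of them is not reported here), and the 2 genes nearest in pattern to each of the 10. Regions were named after their values were seen.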

Additional observations from a re-analysis of the deposited data

Results flagged for a closer look

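Single libraries stood apart from the other 3 of their culture by Dixon's test for 4 values, which was applied to 30 groups of RNA values and 81 groups of ATAC scores, and chance alone gives about 1 such group in 20. In RNA, ENR library 2 had the lowest value of both Apob (1658 CPM, median 1785) and Mogat2 (104 CPM, median 123). Leaving it out ended no call of either gene.

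In ATAC, the upstream region of Apoa1 had 59 in ENR library 2 (median 39), its exon region had 51 in CV library 4 (median 35.5), and the promoter region of Mogat2 had 71 in EN library 4 (median 49). The remaining ones are differences of a few units between rounded scores. They are 26 in ENR and the median 27 at the Mttp promoter region at chr3:137794147-137794582, 1 in CV at the Cd36 promoter region, 2 in ENR in the Cd36 intron at chr5:17385873-17385974, and 6 in CV and 4 in ENR downstream of Fabp1 at chr6:71155326-71155478. The list ends with 8 in ENR at the Apoc3 promoter region at chr9:46043402-46043499 and 4 in CV at the Apoa4 region at chr9:46049201-46049796.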

How the results depend on the processing

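The 10 RNA calls were kept in EN versus CV and EN versus ENR without any 1 library (10 to 10), and 1 value turned, Fabp1 from CV to EN at -0.17 after quantile normalization of log2(TPM + 1). From ENR to CV 4 genes were called at a log2 change of at least 1, and 4 in mRNA copies (Mogat2 higher and Apoa1, Apoc3 and Cd36 lower). With an adjusted p under 0.05 the ATAC calls from ENR to CV became 12. From CV to EN the 14 H3K27ac calls became 29 with an adjusted p under 0.05, 9 after quantile normalization, 0 without the variance trend and 6 to 14 without 1 library. From ENR to EN the 11 became 20, 5, 0 and 2 to 15, and 7 with scores scaled to equal library sums, a setting added once the data had been seen. The 3 H3K4me3 calls from CV to EN became 12 with an adjusted p under 0.05, 7 after quantile normalization, 1 at equal sums and 1 at a mean score of at least 5, also added then. The 7 from ENR to EN became 16, 3, 0 and 4, and 2 to 8 without 1 library, and from ENR to CV there were 2 with an adjusted p under 0.05. Hnf4g at the 63 regions was at 2195, 2322 and 2311 RPM when scaled to promoter reads alone. For the values that moved, the cause was not tested. Of the comparisons of counts and levels with their alternatives, 250 stayed within 1.5 times or kept their call and 41 moved, and of those of single genes, regions and promoter counts 1768 stayed, 205 lost their call, 29 moved and 1 turned.

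Replicate numbers did not pair the RNA libraries, where the correlation of same-numbered deviations was 0.0132 on average (-0.0801 to 0.111), beside -0.00437 for other pairs. In ATAC it was positive in all 12 same-numbered pairs, 0.17 on average (0.0695 to 0.46), beside -0.0557 for other pairs. Same-numbered ATAC libraries thus shared part of their deviations, which the main ATAC test left out. The cause was not tested. With the number as a block the RNA calls were 10, 10 and 10, the ATAC calls 31, 32 and 7, the H3K27ac calls 0, 0 and 0, the H3K4me3 calls 0, 3 and 0 and the H3K27me3 calls 0. Fits with all libraries of the histone experiments were not run, since only the listed libraries had columns in the table. Depth limited Hnf4g in CV most, where 40 of 63 regions had 0 reads, and rounding limited the low H3K4me3 scores.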
